A study of Mus musculus with 8 samples.

Results

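Genes of DNA replication and of the passage from G1 to S phase were followed in bone marrow-derived macrophages (BMDMs) with and without the nuclear receptor coactivator gene Ncoa6, in medium and after inflammasome priming and activation. The 34 genes were chosen by name from a table of 50615 genes, not by a cut on their values but with earlier results of these data known. Each symbol matched 1 Ensembl identifier, and all 34 were among the 17625 genes with at least 10 counts over the 8 libraries. All cells came from C57BL/6 mice carrying the floxed allele Ncoa6 fl/fl. Ncoa6-KO mice also carried LysM CRE, in which the lysozyme gene expressed in myeloid cells drives the recombinase, and the Ncoa6 fl/fl mice without Cre are called Ncoa6-sufficient (labelled WT). Marrow cells of both genotypes were grown for 6 days with the macrophage growth factor M-CSF at 20 ng/ml. They were then kept in medium or given lipopolysaccharide (LPS) at 100 ng/ml for 4 h followed by monosodium urate (MSU) crystals at 200 µg/ml over a further 2 h. There were 8 libraries, 2 in each of the 4 groups. By the study's methods the cells of a group came from different mice, 2 in each. The age and sex of these mice, and whether a medium and an LPS + MSU library came from the same mouse, are not given in the sources used here.

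A cell copies its DNA once per cycle in ordered steps. In G1 the origin recognition complex (ORC), with CDC6 and CDT1, loads the ring of MCM2 to MCM7 on origins as an inactive helicase. At the start of S phase CDC45 and the GINS complex join that ring to make the active helicase, and polymerases, the sliding clamp PCNA and its loader RFC copy the strands. E2F transcription factors switch on many of these genes in late G1, after cyclin D and cyclin E kinases inactivate the retinoblastoma protein. M-CSF keeps BMDMs dividing, and LPS is known to stop the division of macrophages.

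Library totals ranged from 25281955 to 33673552 expected counts. Ncoa6, the targeted gene, had 1515 and 1405 normalized counts in Ncoa6-sufficient libraries in medium and 1297 and 1173 with LPS + MSU, against 784 and 622 and then 563 and 526 in Ncoa6-KO libraries. A normalized count is the count scaled to the mean effective library size after TMM normalization. The knockout libraries were thus the lowest in both conditions, at 0.482 and 0.441 of the Ncoa6-sufficient level. The summed level of 8 macrophage markers, all 8 detected, was lower in Ncoa6-KO libraries (265898 to 306490 against 405656 to 470584 in medium, and 370997 to 394210 against 499722 to 557527 with LPS + MSU). All 8 had a negative log2 difference in each condition, with medians of -0.31 in medium and -0.17 with LPS + MSU. In each condition 2 of the 8 were called lower, beside 1.30% and 1.63% of all genes. A sum is led by its highest genes, and the 8 include Lyz2, the lysozyme gene that drives Cre in the knockout mice. The part of that allele in the sum was not tested.

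Markers of T, NK, mast, B and erythroid cells were near 0, and those of other cell types were far below the macrophage markers. The 6 T and NK cell markers and the 4 mast cell or basophil markers summed to at most 4.16 and 1.72 normalized counts in a library, erythroid markers to at most 21.8, B cell markers to 11.2 to 50.3, neutrophil markers to 566 to 1142 and stromal markers to 149 to 953. Early myeloid progenitor markers summed to 504 and 621 in Ncoa6-sufficient and 979 and 1069.5 in Ncoa6-KO libraries in medium, and to 198 and 249 against 337 and 411 with LPS + MSU, of which Cd34 and Kit made up most. Of these, Elane was at 0 in 3 libraries and Flt3 at 0 in 3. Endothelial markers summed to 365 to 712 in medium and 3063 to 6926 with LPS + MSU, nearly all of it Kdr, while Emcn was at 0 in all 8 libraries. The part of these cells in the results on replication genes was not tested.

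LPS + MSU lowered most of the replication and G1/S genes in both genotypes. In Ncoa6-sufficient BMDMs 27 of the 34 were called lower and 2 higher at an adjusted p under 0.05 (edgeR quasi-likelihood test with Benjamini-Hochberg adjustment), where 30.5% of all 17625 genes tested were called lower and 24.7% higher. In Ncoa6-KO BMDMs 27 were called lower and 2 higher, beside 27.9% and 25.2% of all genes. The same 26 genes were called lower in both genotypes. The median log2 fold change of the 34 genes was -1.24 in Ncoa6-sufficient and -1.32 in Ncoa6-KO cells, against -0.12 and -0.07 over all genes. In bulk RNA, fewer cells in S phase and less RNA per cell cannot be told apart. The 2 Ncoa6-KO medium libraries differed in these genes, as described below with the genotypes. Without single libraries the log2 change in the knockout ranged, for example, from -2.74 to -2.00 for Mcm2 and from -4.58 to -3.75 for Cdc6.

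The size of the change depends on scaling, since the TMM factors were 1.23 to 1.29 in medium and 0.766 to 0.829 with LPS + MSU. Scaling by library size alone moved the median of all genes by -0.67 in Ncoa6-sufficient and -0.63 in Ncoa6-KO cells, and the calls over all genes in Ncoa6-sufficient cells from 4362 higher and 5375 lower to 2498 higher and 9653 lower, and in Ncoa6-KO cells from 4446 higher and 4913 lower to 2540 higher and 9313 lower. Of the 34 genes, 32 were then called lower in each genotype, with 0 higher in Ncoa6-sufficient and 1, Rfc3, higher in Ncoa6-KO cells. DESeq2 moved the median of all genes by 0.11 in Ncoa6-sufficient cells. Relative to the median of all genes, the median of the 34 genes was -1.12 under TMM and -1.13 under library size alone in Ncoa6-sufficient cells, and -1.24 and -1.25 in Ncoa6-KO cells.

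**Figure D1:**
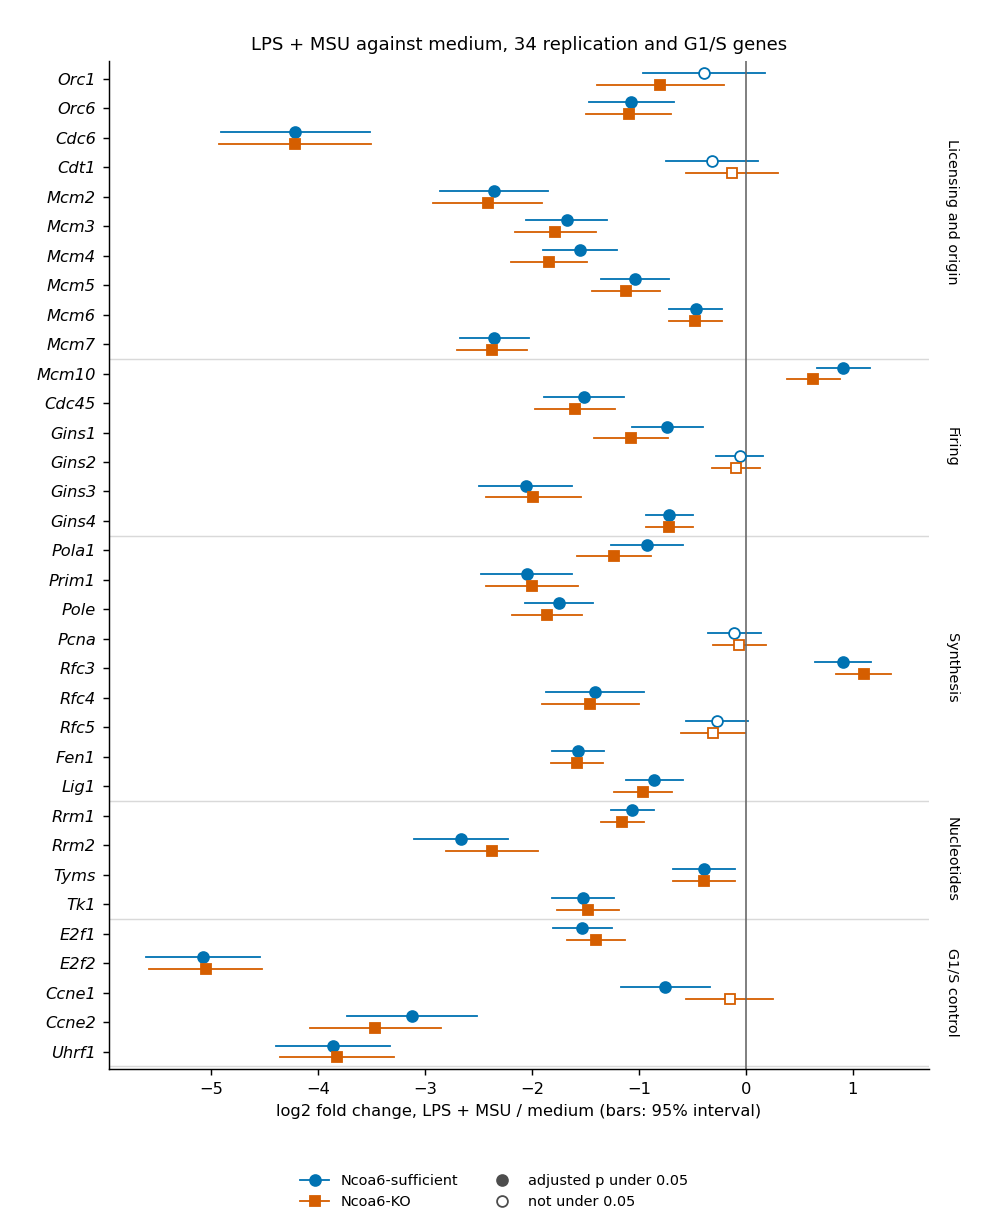
Log2 fold change of the 34 genes between LPS + MSU and medium (x axis) in Ncoa6-sufficient (circles) and Ncoa6-KO (squares) BMDMs, with genes on the y axis grouped by role, bars for the 95% interval of the fit and filled symbols for an adjusted p under 0.05. Most values lie below 0 in both genotypes, with E2f2 at -5.08 and -5.05, while Mcm10 and Rfc3 lie above 0.

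Among the 10 genes of origin licensing, 8 were called lower in Ncoa6-sufficient and 9 in Ncoa6-KO cells, and CDC6, the loading ATPase, changed most. Cdc6 had 396 and 403 normalized counts in Ncoa6-sufficient medium libraries and 23.6 and 19.3 with LPS + MSU, and 265 and 472 against 19.6 and 19.6 in Ncoa6-KO libraries. The groups were far apart, with Cdc6 18.6-fold lower in Ncoa6-sufficient and 18.6-fold lower in Ncoa6-KO cells (log2 -4.21 ± 0.32, SE, adjusted p = 5.66e-07, and -4.22 ± 0.32, adjusted p = 6.88e-07). Cdt1, its partner in loading, had 1690.2 and 1685 in medium and 1412 and 1299 with LPS + MSU in Ncoa6-sufficient libraries, and 1285 and 1927 against 1179 and 1753 in Ncoa6-KO libraries. Its groups overlapped in the knockout, and its log2 change was -0.32 (95% interval -0.75 to 0.11) and -0.13 (-0.56 to 0.30), so that no change passed the test in either genotype.

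Orc1, the ORC subunit whose level varies through the cycle, went from 174 and 198 to 136 and 147 normalized counts in Ncoa6-sufficient and from 129 and 227 to 83.6 and 120.3 in Ncoa6-KO libraries. It was called lower in the knockout (log2 -0.80 ± 0.27, adjusted p = 0.0265) but not in Ncoa6-sufficient cells (-0.39 ± 0.26, adjusted p = 0.225), and the difference between the genotypes did not pass the test (interaction -0.41, 95% interval -1.23 to 0.42). Without Ncoa6-KO medium replicate 2 the knockout value was -0.34, with an adjusted p of 0.254, and without LPS + MSU replicate 1 of that genotype it was -0.57, with an adjusted p of 0.193. Orc6, a small ORC subunit, fell in both genotypes (log2 -1.07 and -1.10).

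The 6 subunits of the MCM2 to MCM7 helicase, which act as 1 ring with 1 copy of each, all fell with LPS + MSU but by unequal amounts. Mcm7 went from 2247 and 2267 normalized counts to 421 and 461 in Ncoa6-sufficient libraries and from 1719 and 2255 to 339.8 and 425 in Ncoa6-KO libraries. Mcm2 went from 1869.6 and 1859 to 349 and 380.1, and from 1345 and 2242 to 272 and 402 in the knockout. Both were 5.11-fold lower in Ncoa6-sufficient cells (log2 -2.35 ± 0.15 for Mcm7 and -2.35 ± 0.23 for Mcm2). Mcm3 went from 2628 and 2791 to 759 and 936, and from 2122 and 3077 to 687 and 824 in the knockout. Mcm4 went from 2079.7 and 1981 to 698 and 687, and from 1534 and 2284 to 524 and 540.1 in the knockout. These changes were intermediate, at -1.68 and -1.55 in Ncoa6-sufficient and -1.78 and -1.84 in Ncoa6-KO cells.

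Mcm5 went from 3157 and 2909 to 1477 and 1483 normalized counts in Ncoa6-sufficient libraries, and from 2161 and 2953 to 1064 and 1282 in the knockout. Mcm6 went from 5776 and 5693 to 4206 and 4075, and from 4730.1 and 5911 to 3721 and 3936 in the knockout. Mcm6 changed least of the 6, to 0.722 of the medium level (log2 -0.47 ± 0.11, adjusted p = 0.00397) against 0.488 for Mcm5, and its 95% interval in Ncoa6-sufficient cells (-0.72 to -0.22) did not overlap that of Mcm7 (-2.68 to -2.03). Without Ncoa6-sufficient LPS + MSU replicate 2 the call for Mcm6 in those cells was lost, at -0.40 and an adjusted p of 0.0518. As levels per kilobase of exon (normalized counts per 1000 bases of annotated exon), Mcm6 was the highest and Mcm2 the lowest of the 6 in each group. They were at 1229 and 268 in Ncoa6-sufficient medium libraries, 4.59-fold apart, and at 887 and 52.4 with LPS + MSU, 16.9-fold apart. In the knockout the same spread went from 4.42-fold to 17.0-fold. These lengths count every annotated exon of a gene, so the order of levels between genes also carries that choice, while the widening does not.

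**Figure D2:**
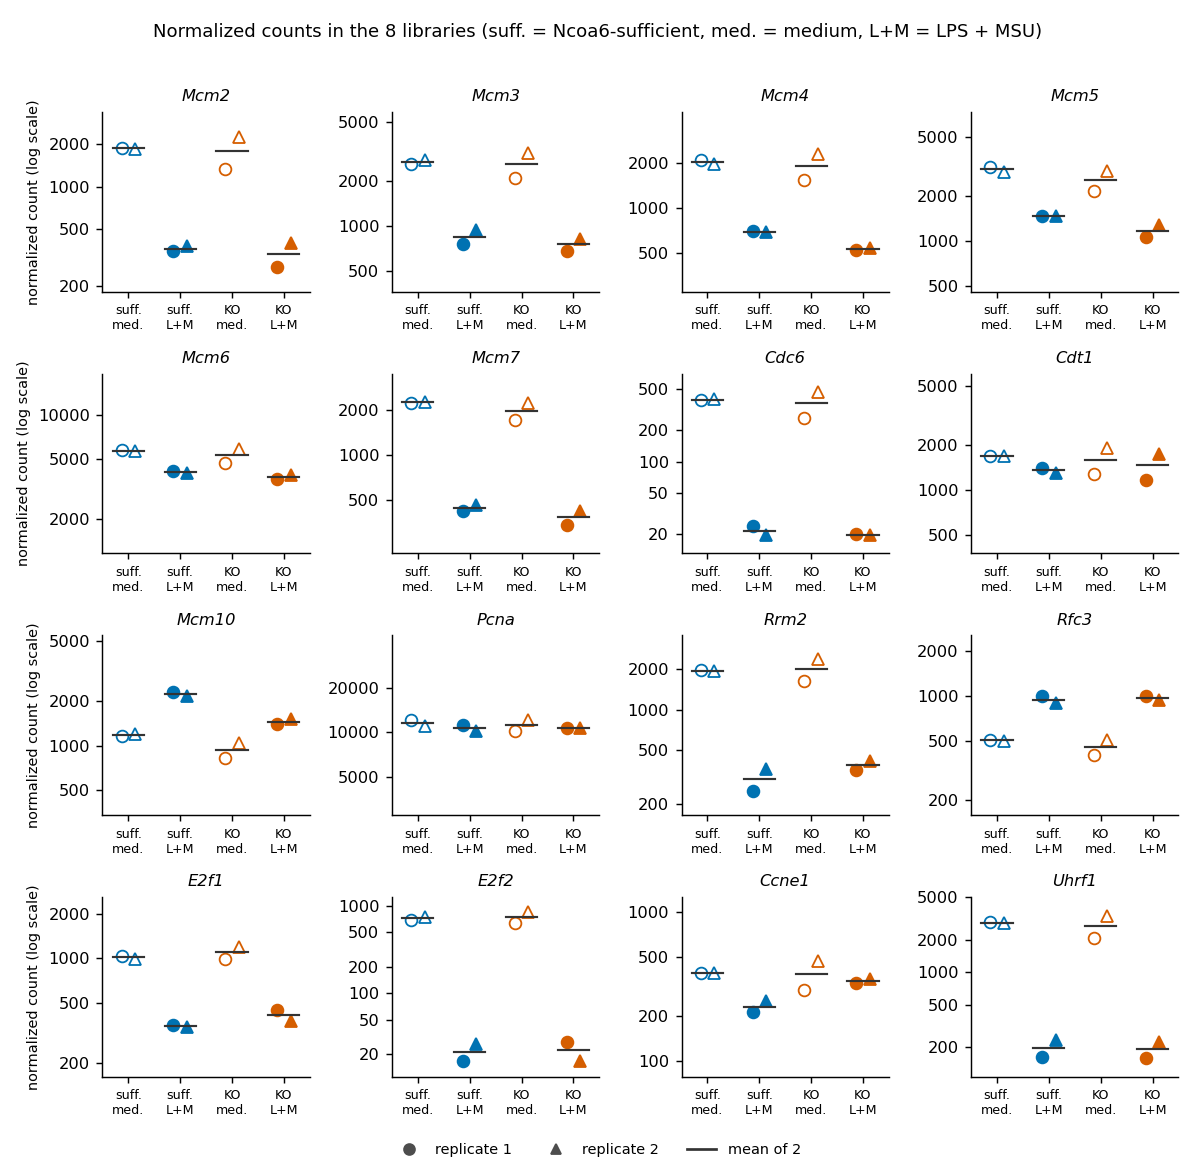
Normalized counts (y axis, log scale) of 16 of the genes in the 8 libraries, by group (x axis), with circles for replicate 1, triangles for replicate 2 and lines for the mean of 2. With LPS + MSU both libraries of each genotype lie below both medium libraries for Mcm2 to Mcm7, Cdc6, Rrm2, E2f1, E2f2 and Uhrf1, and above them for Mcm10 and Rfc3, and in Ncoa6-KO medium replicate 2 lies above replicate 1 in every panel.

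Among the 6 genes that turn the loaded ring into a running helicase, 4 were called lower and Mcm10 higher in each genotype. Mcm10, which binds the ring and is needed for its activation, had 1163 and 1196 normalized counts in medium and 2272 and 2159 with LPS + MSU in Ncoa6-sufficient libraries, and 825 and 1048 against 1401 and 1497 in Ncoa6-KO libraries. It rose 1.88-fold in Ncoa6-sufficient (adjusted p = 3.34e-05) and 1.55-fold in Ncoa6-KO cells (adjusted p = 0.000645) under TMM, but under library size alone its log2 changes were 0.24, with an adjusted p of 0.0957, and -0.0038, with an adjusted p of 0.979. Cdc45 fell (log2 -1.52 and -1.60). The 4 GINS subunits, which like the MCM ring form a complex with 1 copy of each, also changed unequally. Gins3 fell most (-2.06 and -1.99), then Gins1 (-0.73 and -1.07) and Gins4 (-0.72 and -0.71). Gins2 did not pass the test, at -0.06 and -0.09, and 67.3% of its annotated exon bases overlap those of Gse1 on the other strand, from which its reads can be told apart only if counting used the strand of the read.

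The 9 genes of strand synthesis split into 6 called lower, Rfc3 called higher, and Pcna and Rfc5 not called, in each genotype. Pole, the catalytic subunit of the leading-strand polymerase, went from 1103 and 1111 normalized counts to 306 and 351 in Ncoa6-sufficient and from 829 and 1082 to 240.5 and 285 in Ncoa6-KO libraries. It was 3.37-fold and 3.63-fold lower. On the log2 scale the primase gene Prim1 was at -2.05 and -2.00, the flap nuclease gene Fen1 at -1.57 and -1.58, Pola1, of the polymerase that extends primers, at -0.92 and -1.23, and the ligase gene Lig1 at -0.85 and -0.96. For Fen1, 78.8% of the annotated exon bases overlap an antisense gene, Gm10143.

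Pcna had the highest level per kilobase of the 34 genes in every group, and it had 12123 and 10972 normalized counts in medium and 11148 and 10278 with LPS + MSU in Ncoa6-sufficient libraries, and 10305 and 12164 against 10783 and 10763 in Ncoa6-KO libraries. The groups overlapped in both genotypes and the log2 change lay within -0.36 to 0.14 and -0.31 to 0.19 (95% intervals). Under library size alone it was called lower, at -0.78 and -0.70, close to the shift of all genes. The clamp loader subunits did not move together. Rfc3 had 507 and 501 in medium and 992 and 899 with LPS + MSU in Ncoa6-sufficient libraries, and 404 and 503 against 1001 and 940.2 in the knockout. It rose 1.88-fold and 2.14-fold, with adjusted p of 4.90e-05 and 1.18e-05, though under library size alone the rise in Ncoa6-sufficient cells was 0.24 on the log2 scale, with an adjusted p of 0.102. Rfc4 fell (-1.41 and -1.46), and Rfc5 was at -0.27 and -0.31 with adjusted p of 0.110 and 0.0755.

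All 4 genes of nucleotide supply were called lower in both genotypes. Rrm2, the small subunit of ribonucleotide reductase, went from 1960.4 and 1948 normalized counts to 248 and 366 in Ncoa6-sufficient and from 1649 and 2378 to 358 and 417 in Ncoa6-KO libraries. It was 6.36-fold and 5.19-fold lower, while Rrm1, the large subunit, was 2.09-fold and 2.23-fold lower. Tk1 (thymidine kinase) was at -1.52 and -1.48 on the log2 scale. Tyms (thymidylate synthase) changed least, at -0.39 and -0.39 with adjusted p of 0.0247 and 0.0261, and with DESeq2 it was -0.28 and -0.34 with adjusted p of 0.187 and 0.110. Leaving out any 1 of the 4 Ncoa6-sufficient libraries, or either Ncoa6-KO LPS + MSU library, also ended the call in Ncoa6-sufficient cells (highest adjusted p = 0.179), and leaving out Ncoa6-KO medium replicate 2 or either Ncoa6-KO LPS + MSU library ended it in Ncoa6-KO cells (highest 0.232).

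The regulators held the largest fall of the set. E2f2, an activator E2F, had 701 and 753 normalized counts in medium and 16.6 and 26.2 with LPS + MSU in Ncoa6-sufficient libraries, and 639 and 849 against 27.4 and 16.8 in Ncoa6-KO libraries. It was 33.8-fold and 33.2-fold lower (log2 -5.08 ± 0.24, adjusted p = 1.63e-08, and -5.05 ± 0.24, adjusted p = 1.61e-08). E2f1, the other activator E2F among these genes, went from 1039 and 998 to 360.2 and 346, and from 998 and 1200.4 to 453 and 378 in the knockout, 2.89-fold and 2.64-fold lower. Uhrf1, which guides maintenance DNA methylation behind the fork, went from 2918 and 2857 to 163 and 233, and from 2099 and 3336 to 161 and 224 in the knockout. It was 14.6-fold and 14.1-fold lower, the third largest fall in each genotype.

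The 2 cyclin E genes, which encode the kinase partners that act at the G1/S border, moved differently. Ccne2 fell in both genotypes (log2 -3.12 ± 0.28 and -3.46 ± 0.28). Ccne1 had 392 and 389.7 normalized counts in medium and 212 and 252 with LPS + MSU in Ncoa6-sufficient libraries, and 302 and 467 against 335 and 355 in Ncoa6-KO libraries. It was called lower in Ncoa6-sufficient cells (log2 -0.75 ± 0.19, adjusted p = 0.00576) and not in the knockout (-0.15 ± 0.18, adjusted p = 0.522), where both LPS + MSU libraries lay between the 2 medium libraries. Without Ncoa6-sufficient LPS + MSU replicate 1 the former was -0.58 with an adjusted p of 0.0744, and without Ncoa6-KO medium replicate 2 the latter was 0.20.

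Many of these genes hold an E2F site near their start. RefSeq start regions of 300 bases (250 before to 50 after the annotated start, GRCm38.p6) matched 28 of the 34 genes by symbol, and 13 of the 28 held at least 1 of the E2F sites TTTCGCGC, TTTGGCGC or TTTCCCGC on either strand. Counted by window, 13 of their 34 windows (38.2%) held a site, against 1.84% of all 32851 windows. The single sites were in 0.323%, 0.514% and 1.07% of all windows and in 20.6%, 17.6% and 14.7% of those of the genes (7, 6 and 5 genes). The CCAAT box was in 18 of the 28 genes, and in 61.8% of their windows against 37.4% of all windows. The CHR element TTTGAA was in 5 of the genes, and in 14.7% of their windows against 17.9% of all windows. The stretches below show 1 site each of 4 helicase genes, of the 3 genes with the largest falls (Cdc6, E2f2 and Uhrf1) and of Rfc3, which rose. Each is 30 bases on the gene's strand, 5′ to 3′, with that E2F site in capitals (read on the other strand in Cdc6). The position is that of the first capital, counted from 0 at the start (for Uhrf1, the second of its annotated starts). Mcm3, Mcm5, Mcm6, Mcm7 and Rfc3 held further sites that are not in capitals. Those of Mcm5 (position -149) and Rfc3 (position 0), on the other strand, lie within the stretches shown.
Mcm3, position 38, chr1:20820263-20820292, minus strand: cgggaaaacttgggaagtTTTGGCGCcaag
Mcm5, position -153, chr8:75109345-75109374, plus strand: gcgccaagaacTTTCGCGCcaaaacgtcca
Mcm6, position -47, chr1:128359734-128359763, minus strand: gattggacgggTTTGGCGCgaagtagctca
Mcm7, position 16, chr5:138171849-138171878, minus strand: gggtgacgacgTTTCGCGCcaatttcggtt
Cdc6, position -138, chr11:98908002-98908031, plus strand: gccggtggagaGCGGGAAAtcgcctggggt
E2f2, position 39, chr4:136172294-136172323, plus strand: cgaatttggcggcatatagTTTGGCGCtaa
Uhrf1, position -185, chr17:56304117-56304146, plus strand: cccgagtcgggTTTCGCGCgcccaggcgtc
Rfc3, position -10, chr5:151651200-151651229, minus strand: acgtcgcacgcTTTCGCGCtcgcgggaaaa

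Genes with a site and genes without one both spanned a wide range of responses. The 13 genes with a site had log2 changes with LPS + MSU from -5.08 to 0.91 in Ncoa6-sufficient cells, with a median of -1.04 and 10 called lower. The 15 with a window and no site had changes from -2.67 to 0.91, with a median of -1.41 and 12 called lower. Mcm6, which changed least of the helicase ring, and Mcm7, which changed as much as any of it in Ncoa6-sufficient cells, both hold a site, as do Rfc3 and Cdt1. A match is a description of the letters in these windows only.

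The other genes of the cell cycle were counted in 4 lists, 104 genes in all, to be read against the 30.5% of all genes called lower and 24.7% called higher in Ncoa6-sufficient cells, and 27.9% and 25.2% in Ncoa6-KO cells. Of 45 further replication genes, 38 were called lower and 6 higher in Ncoa6-sufficient and 36 and 5 in Ncoa6-KO cells. Of 9 further genes of nucleotide supply, 6 were lower and 2 higher, and 5 and 2 in the knockout. Of 28 further G1/S control genes, 16 were lower and 7 higher, and 16 and 8 in the knockout, and 11 of the 28 had a positive change in each genotype. The median log2 changes of these lists in Ncoa6-sufficient cells were -1.40, -0.77 and -0.80. Of 22 genes of the later G2 and M phases, set beside them, 20 were lower and 1 higher (median -1.75), and 19 and 1 in the knockout (median -1.57). The largest fall among the 104 was that of E2f7, an E2F that represses transcription, at -4.01 and -4.28. The largest rise was that of Ccnd2, a cyclin D gene, from 85.6 and 76.6 normalized counts to 3214 and 2198 in Ncoa6-sufficient and from 98.0 and 165 to 2228 and 1724 in Ncoa6-KO libraries.

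Before the genotypes are compared, the 2 Ncoa6-KO medium libraries need to be described, since they differ in these genes. Replicate 2 was higher than replicate 1 in 34 of 34 genes, by a median of 0.40 on the log2 scale (1.32-fold), from 0.11 for Gins4 (692 and 747 normalized counts) to 0.83 for Cdc6. Replicate 2 was the higher in 14 of 34 genes in Ncoa6-sufficient medium, 18 with LPS + MSU, and 25 in Ncoa6-KO with LPS + MSU. Of all 17625 genes, replicate 2 was the higher in 8357, 8264 and 8963 in those groups. Over all genes the 2 Ncoa6-KO medium libraries differed by a median of -0.01, with replicate 2 higher in 46.7%. Replicate 2 was also higher for 42 of the 45 further replication genes (median 0.31), but for 12 of the 22 G2/M genes (median 0.02). Against the Ncoa6-sufficient medium libraries, replicate 1 lay below both in 34 of 34 genes, with a median of -0.37, while replicate 2 lay above both in 20 and below both in 9, with a median of 0.10. The same counts of single knockout libraries were not made over all genes, so these have no background share beside them.

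**Figure D3:**
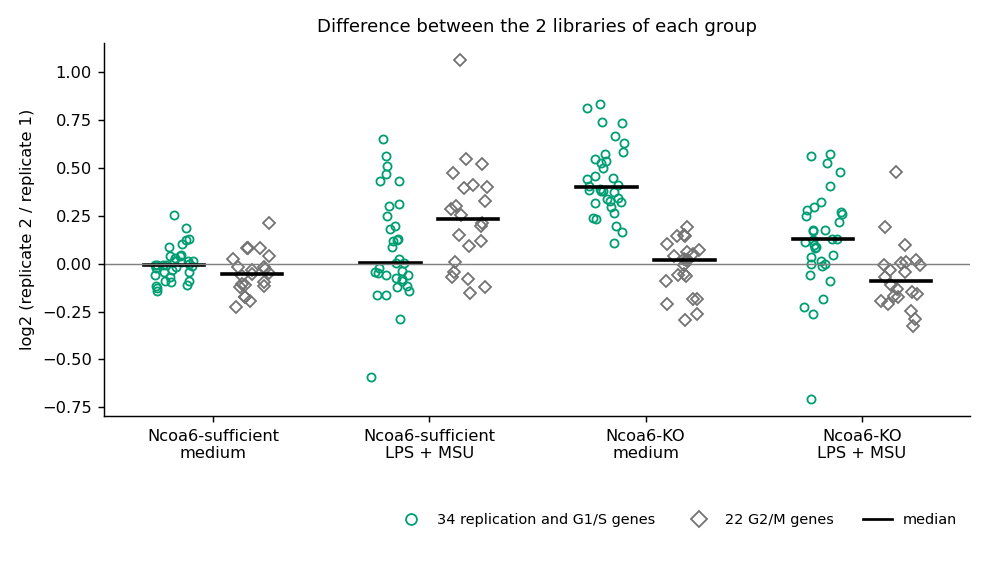
Log2 ratio of replicate 2 to replicate 1 (y axis) in each of the 4 groups (x axis) for the 34 replication and G1/S genes (circles) and 22 G2/M genes (diamonds), each symbol 1 gene and each line the median. In Ncoa6-KO medium all 34 circles lie above 0, with a median of 0.40, while the diamonds lie on both sides.

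In medium, 0 of the replication and G1/S genes were called in the knockout relative to Ncoa6-sufficient cells, beside 0.573% of all genes called higher and 1.30% called lower. At an unadjusted p under 0.05, 4 were lower and 0 higher by edgeR, beside 1386 lower and 876 higher of all 17625 genes. DESeq2 and limma-voom called 0 of the set at an adjusted p under 0.05. The median log2 difference was -0.10, against -0.03 over all genes. It was -0.37 without Ncoa6-KO medium replicate 2 and 0.10 without replicate 1, and 0 genes were called without the one or the other. Both knockout libraries lay below both Ncoa6-sufficient libraries for 9 genes, beside 24.5% of all genes.

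The smallest p-value was that of Rrm1, with 5531 and 5581 normalized counts in Ncoa6-sufficient and 4247 and 4764 in Ncoa6-KO medium libraries (log2 -0.30 ± 0.09, adjusted p = 0.142). Its groups did not overlap, but the difference did not pass the test, other than with the replicate number as a block, where the adjusted p was 0.0380. Mcm10 followed at -0.33 ± 0.11 and Gins1 at -0.37 ± 0.14, from 355 and 332 to 236 and 297 normalized counts. Gins4, with 883 and 816 against 692 and 747, was at -0.24 ± 0.10, and Tk1, with 1692 and 1640.4 against 1225 and 1594, at -0.24 ± 0.12. In these 5 genes both knockout libraries were the lower ones. For the genes with the largest response to LPS + MSU the intervals of the genotype difference were wide, at -0.59 to 0.35 for Cdc6, -0.52 to 0.34 for Uhrf1 and -0.31 to 0.37 for E2f2, and they were narrower for Pcna (-0.29 to 0.21) and Mcm6 (-0.35 to 0.14).

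With LPS + MSU, 3 genes were called lower in Ncoa6-KO BMDMs and 0 higher, beside 1.63% of all genes called lower and 1.96% called higher. The median log2 difference was -0.17, against 0.00 over all genes. Over all genes the balance of calls depended on the method, with 345 higher and 287 lower by edgeR with TMM, 344 and 505 by DESeq2, and 480 and 218 under library size alone. Both knockout libraries lay below both Ncoa6-sufficient libraries for 16 genes, beside 22.7% of all genes, and above both for 2, E2f1 and Ccne1, as were 4353 of the 17625 genes. The 3 genes were Mcm10 (ENSMUSG00000026669, chromosome 2, 4989714 to 5012791, minus strand, GRCm38), Gins1 (ENSMUSG00000027454, chromosome 2, 150905400 to 150931280, plus strand) and Rrm1 (ENSMUSG00000030978, chromosome 7, 102441695 to 102469771, plus strand), the first 2 from helicase activation and the third from nucleotide supply, and these 3 also had the smallest p-values in medium.

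Mcm10 had 2272 and 2159 normalized counts in Ncoa6-sufficient and 1401 and 1497 in Ncoa6-KO LPS + MSU libraries, 1.53-fold lower in the knockout (log2 -0.61 ± 0.11, adjusted p = 0.0168). Gins1 had 209 and 204 against 136 and 116, 1.64-fold lower (-0.71 ± 0.17, adjusted p = 0.0432). Rrm1 had 2656 and 2666 against 2033 and 2013, 1.32-fold lower (-0.40 ± 0.09, adjusted p = 0.0426). In all 3 the libraries of a genotype lay close together and the genotypes apart. The calls rest on few libraries. Mcm10 was no longer called without Ncoa6-sufficient LPS + MSU replicate 1 or either Ncoa6-KO LPS + MSU library (adjusted p = 0.146, 0.0808 and 0.117), and Rrm1 and Gins1 were no longer called without any 1 of 6 libraries, all but those of Ncoa6-KO medium. The log2 differences stayed within -0.66 and -0.58 for Mcm10, -0.42 and -0.39 for Rrm1 and -0.85 and -0.61 for Gins1. With the 4 compared libraries alone, or under library size alone, Mcm10 was the 1 gene called, and with limma-voom Gins1 was not called (adjusted p = 0.103).

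Mcm4 (698 and 687 normalized counts in Ncoa6-sufficient and 524 and 540.1 in Ncoa6-KO LPS + MSU libraries) was at -0.38 ± 0.16 with an adjusted p of 0.260, and the other helicase genes were between -0.34 for Mcm5 and -0.11 for Mcm6. Ccne1 was the gene furthest in the other direction, at 0.57 ± 0.20 with an adjusted p of 0.155, and its groups did not overlap. It was called higher in the knockout with the replicate number as a block (adjusted p = 0.0376) and without either Ncoa6-KO medium library (0.0383 and 0.0372). E2f1 was at 0.24 ± 0.13, also with both knockout libraries the higher ones, while E2f2 was at 0.06 with an interval of -0.81 to 0.92.

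**Figure D4:**
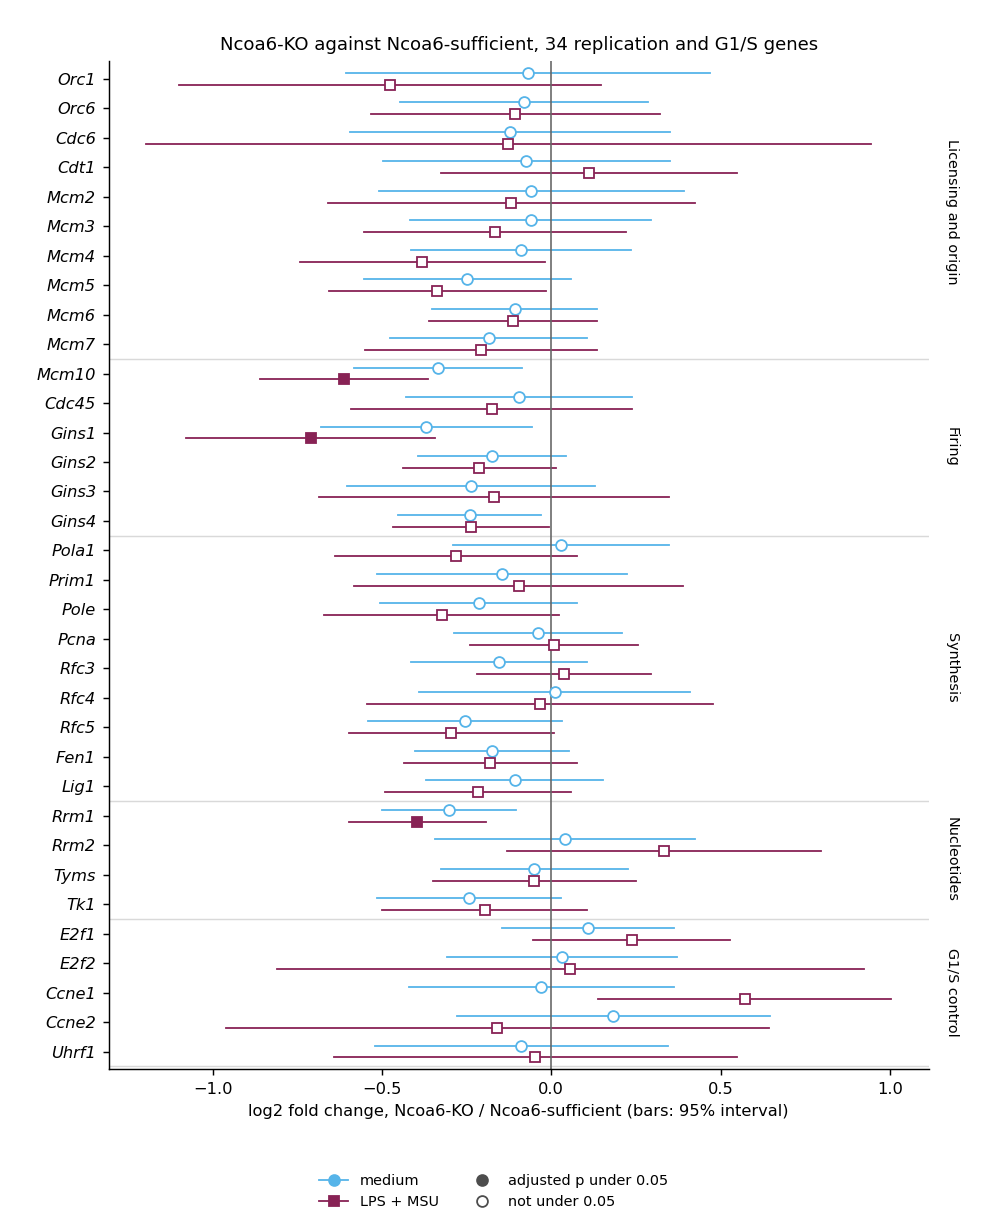
Log2 fold change of the 34 genes between Ncoa6-KO and Ncoa6-sufficient BMDMs (x axis) in medium (circles) and with LPS + MSU (squares), with genes on the y axis by role, bars for the 95% interval and filled symbols for an adjusted p under 0.05. Values in medium lie between -0.37 and 0.18 with none filled, and with LPS + MSU Mcm10, Gins1 and Rrm1 are filled, at -0.61, -0.71 and -0.40.

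Whether the genotypes responded differently to LPS + MSU was tested as the interaction, the log2 response in Ncoa6-KO minus that in Ncoa6-sufficient cells. No gene of the 34 passed the test, and 1, Ccne1, had an unadjusted p under 0.05 (0.60, 95% interval 0.02 to 1.19, adjusted p = 0.822). Over all 17625 genes edgeR called 0%, with 724 higher and 321 lower at an unadjusted p under 0.05, while DESeq2 called 32 higher and 13 lower but 0 of the 34. Ccne1 was followed by Mcm10 at -0.28 (-0.63 to 0.07), Gins1 at -0.34 (-0.82 to 0.14), Pola1 at -0.31 (-0.79 to 0.17) and Mcm4 at -0.29 (-0.78 to 0.20). Pola1 had 904 and 929 normalized counts in medium and 509.8 and 456 with LPS + MSU in Ncoa6-sufficient, and 814 and 1057 and then 342 and 453 in Ncoa6-KO libraries. For Mcm4 the value was 0.023 without Ncoa6-KO medium replicate 2. The difference in response lay within -0.35 to 0.34 for Mcm6 and -0.31 to 0.32 for Gins4, and was much less certain for Cdc6 (-1.02 to 1.01).

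Between genotypes, most calls in the other cell cycle lists were of G2/M and G1/S control genes. Of the 22 G2/M genes, 8 were called lower in the knockout in medium and 8 with LPS + MSU, with 0 higher, beside 1.30% and 1.63% of all genes called lower, and their median log2 differences were -0.44 and -0.41. Both knockout libraries lay below both Ncoa6-sufficient libraries for 22 of the 22 in medium and for 17 with LPS + MSU, beside 24.5% and 22.7% of all genes. The calls in medium ranged from 0 (without Ncoa6-sufficient medium replicate 1) to 7 when single libraries were left out, with 3 and 2 without Ncoa6-KO medium replicate 1 and replicate 2, and with LPS + MSU from 0 (without Ncoa6-sufficient replicate 1 or Ncoa6-KO replicate 2) to 9, while the medians stayed between -0.53 and -0.29. Birc5 (survivin) had 1972 and 2030.1 normalized counts in Ncoa6-sufficient and 1209 and 1382 in Ncoa6-KO medium libraries (-0.63 ± 0.10, adjusted p = 0.0111), and Prc1, of the central spindle, had 3425 and 2989 against 2231 and 2135 (-0.56 ± 0.09, adjusted p = 0.0193). With LPS + MSU Cdk1, the mitotic kinase, had 1448 and 1456 against 927 and 922 (-0.65 ± 0.09, adjusted p = 0.00574). Whether the G2/M genes differed between genotypes more than the replication genes was not tested.

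Of the 82 further replication, nucleotide and G1/S control genes, 2 were called higher and 0 lower in the knockout in medium, and 4 higher and 3 lower with LPS + MSU. Over all genes 0.573% were called higher and 1.30% lower in medium, and 1.96% and 1.63% with LPS + MSU. None of the 9 genes of nucleotide supply was among them, and the replication genes gave 1, Mcmbp (-0.70 with LPS + MSU). All the higher calls were genes of cyclin-dependent kinase inhibitors, which hold cells in G1. Inhibitor genes did not all move this way, since Cdkn2d was called lower with LPS + MSU and Cdkn1b and Cdkn2c were not called. Cdkn2a, whose locus encodes p16 and ARF, had 282 and 235 normalized counts in Ncoa6-sufficient medium libraries and 448 and 483 in Ncoa6-KO medium libraries, and 288 and 248 against 549 and 581 with LPS + MSU. It was 0.85 ± 0.13 and 1.07 ± 0.13 higher on the log2 scale (adjusted p = 0.00985 and 0.00370), and in medium it was no longer called without either Ncoa6-sufficient medium library (adjusted p = 0.0640 and 0.0885) or Ncoa6-KO medium replicate 2 (0.0503). Cdkn1c (p57) had 244 and 293 against 418 and 464 in medium and 161 and 187 against 434 and 506 with LPS + MSU, 0.71 and 1.43 higher (adjusted p = 0.0298 and 0.00191). Its call in medium was also lost without either Ncoa6-sufficient medium library (adjusted p = 0.367 and 0.0752) or Ncoa6-KO medium replicate 2 (0.127). The other calls with LPS + MSU, named after their values were seen, as was Mcmbp, were Cdkn1a (0.75) and Cdkn2b (1.28), both higher, and Cdkn2d (-0.77) and Ccnd3 (-0.57), both lower. Left out singly, the LPS + MSU libraries and the Ncoa6-sufficient medium libraries left 2 to 4 G1/S control genes called higher and 0 to 1 lower.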

How the data were processed

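RNA was sequenced from 8 BMDM libraries (stranded mRNA kit, paired ends). The authors deposited expected counts per gene, made with STAR 2.7.3a and RSEM 1.3.3 on GRCm38 with annotation release 101, as the study's methods and the submitters' processing notes give it; MultiQC and DESeq2 are also named there. Whether counting used the strand is not given in the sources used here, so overlapping antisense genes and processed pseudogenes (as for Pcna and Tyms) may share reads with these genes. RSEM shares out reads that match several genes.

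Rounded counts entered the fit for genes whose 8 libraries summed to at least 10 (17625 of 50615; 50295 identifiers had a symbol). edgeR 4.0.16 in R 4.3.3 fitted the 4 groups in 1 quasi-likelihood model with TMM normalization and 4 residual degrees of freedom. Genes were called at a Benjamini-Hochberg adjusted p under 0.05 over all genes tested. Standard errors were the log2 fold change divided by the square root of F. An exact permutation test of 2 against 2 libraries cannot go below 0.333, so none was used. Alternatives were DESeq2 1.42.0, its size factors in edgeR, limma-voom (limma 3.58.1), other filters, replicate blocks, the 4 compared libraries alone and leaving out each library. Scaling by library size alone was chosen after seeing the data, as were the values given without single libraries. The script was tested on simulated data.

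The 34 genes and the other lists were chosen with earlier results of these data known. Values in every library are given for the genes with the smallest p between genotypes (5 in each condition and in the interaction), the 3 largest rises and falls with LPS + MSU, and 1 or more genes for each role. Of the other lists, the 3 genes with the smallest p and the largest rise and fall are named. Gene positions and exon lengths are from GENCODE for GRCm38, and start regions from RefSeq for GRCm38.p6.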

Additional observations from a re-analysis of the deposited data

How the results depend on the processing

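The response to LPS + MSU kept its direction in both genotypes under every alternative run. In Ncoa6-sufficient cells its median log2 fold change was -1.24, and -1.13 with DESeq2, -1.13 with DESeq2 size factors, -1.91 under library size alone and -1.35 to -1.11 without single libraries. In Ncoa6-KO cells it was -1.95 under library size alone. Under that scaling 0 genes were called higher in Ncoa6-sufficient and 1 in Ncoa6-KO cells, and Mcm10 was at -0.0038 in the latter; by construction it leaves in the shift of all genes. Genes near 0 changed sign. In Ncoa6-sufficient cells Gins2 was at 0.054 with DESeq2 and 0.054 with its size factors (-0.060 to 0.015 without single libraries), and Pcna at 0.0040 with both. Without single libraries in Ncoa6-KO cells, Cdt1 ranged from -0.44 to 0.19, Gins2 from -0.19 to 0.0078, Pcna from -0.17 to 0.067 and Ccne1 from -0.44 to 0.20, and the interaction of Mcm4 from -0.55 to 0.023. The genotype results were less stable. In medium the median ranged from -0.37 to 0.10 without single libraries. With LPS + MSU the genes called lower in the knockout numbered 3, but 1 with the 4 compared libraries alone, 1 under library size alone and 0 to 4 without single libraries. Those called higher numbered 1 with no filter, 1 with the block and 0 to 1 without single libraries. The cause was not tested.

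Samples of the same replicate number deviated from their group means with correlations of 0.0333 to 0.334 over 11219 genes. The correlation between medium and LPS + MSU was 0.334 within Ncoa6-KO and 0.257 within Ncoa6-sufficient cells. Between groups of different genotypes it was 0.0333 to 0.188. With 2 numbers and no source saying that a number marks the same mouse in different groups, this was not taken as pairing. The replicate block across all groups called 1 gene in medium, Rrm1 (adjusted p = 0.0380). With LPS + MSU it called Ccne1 higher (0.58, adjusted p = 0.0376), and Mcm10, Gins1 and Rrm1 stayed called lower. Over all 17625 genes this block called 331 higher and 692 lower in medium, more in each direction than without a block. With LPS + MSU it called 750 higher and 782 lower, against 345 and 287 without a block. The block within each genotype called 30 genes of the set lower with LPS + MSU in Ncoa6-sufficient and 28 in Ncoa6-KO cells. Over all 17625 genes it called 5818 and 5432 lower, against 5375 and 4913 without a block. The tally of alternative values for single genes held all the replication and G1/S genes only for the response to LPS + MSU. Between genotypes it held only Ncoa6 and the genes with the smallest p, and for the interaction only the latter. Of these values, 1496 kept their direction and call, 53 lost the call, 31 gained one and 12 changed sign. In medium, without single libraries, untallied Mcm5, Gins2, Gins3, Pole, Fen1, Rfc3 and Rfc5 kept the sign of their genotype difference. The other untallied genes of the set changed sign, such as Mcm2 (-0.47 to 0.27) and Cdc6 (-0.59 to 0.24). Depth limits the genes with few counts after LPS + MSU, such as Cdc6 and E2f2.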
